A study of Homo sapiens with 6 samples.

Results

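The ATP-binding cassette (ABC) transporter family was examined after AVJ16 treatment of H1299, an established line of human non-small cell lung carcinoma. Members were chosen by name alone, as every gene in the deposited table whose symbol was ABC followed by a subfamily letter from A to G and a number. This gave 38 of the 22004 genes in the table. AVJ16 is a small molecule that inhibits IGF2BP1, which binds mRNAs and controls their stability and translation. Wild-type H1299 cells received 1.5 µM AVJ16 or a matching amount of the solvent DMSO for 48 h, and poly(A) RNA from 3 samples of each group was sequenced. All 6 libraries thus came from 1 cell line and 1 time point, and the labels do not say whether the 3 libraries of a group came from separate cultures, so p-values measure only the spread between these libraries. The libraries are called A, B and C (DMSO) and D, E and F (AVJ16). The study had itself named ABC transporters among the RNAs that were lower in these libraries, so the choice of the family is not independent of the data.

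ABC proteins bind and hydrolyse ATP, and most use that energy to move a substrate across a membrane. A full transporter carries a pair of membrane domains and a pair of ATP-binding domains in 1 chain, whereas a smaller form carries 1 of each and must pair with another chain to work. Subfamily A moves mainly lipids. Subfamily B holds the drug pump ABCB1, bile transporters and the paired-chain transporters of mitochondria and lysosomes. Subfamily C holds the multidrug resistance proteins, which export organic anions and glutathione conjugates, together with regulators of potassium channels. Subfamily D imports fatty acids into peroxisomes, and subfamily G moves sterols and drugs. The proteins of subfamilies E and F have no membrane part and act on ribosomes and translation. In tumour cells the family is best known for drug efflux, which lowers the amount of a drug that stays in the cell.

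The libraries held 19353830 to 30253721 counts. Among the AVJ16-treated libraries, D stood apart. Mitochondrially encoded genes made up 11.9% of its counts, against 5.13% to 6.66% in the other 5 libraries, and it lay at -16.2 on the second principal component while E and F lay at 9.07 and 5.14. Members that passed, or that passed without D, are therefore given both ways, and the part of the mitochondrial share in them was not tested. Of the epithelial markers, KRT8 and KRT18 averaged 307 and 486 CPM (counts scaled to a common library size) in DMSO, whereas EPCAM, CDH1, KRT19 and CLDN4 averaged 0.431, 1.45, 0.182 and 0.82 CPM, and the lung markers NKX2-1 and SFTPB averaged 0.739 and 0.0495 CPM. The mesenchymal markers VIM, CDH2, ZEB1 and FN1 averaged 5694, 48.9, 38.2 and 37.2 CPM in DMSO. The label of an epithelial-like lung cell was thus met by KRT8 and KRT18 but not by the other 4 epithelial markers or the alveolar genes. Some of these markers changed with AVJ16 by the edgeR test described below. CDH1 was lower (log2 fold change -2.53, adjusted p = 0.00479, on 2 to 48 counts per library). FN1 was lower (-0.68, adjusted p = 0.0150) and VIM higher (0.39, adjusted p = 0.0449). The other tested epithelial, alveolar and mesenchymal markers did not pass. The 4 leukocyte markers found in the table (of 6 listed) summed to 0.98 to 1.74 CPM in DMSO and 1.73 to 3.24 CPM in AVJ16. The 7 fibroblast and endothelial markers summed to 5.04 to 6.58 CPM in DMSO and 3.11 to 4.69 CPM in AVJ16, most of it COL1A1, and the other 6 were each under 1 CPM on average in both groups.

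The 3 members that passed the test below were ABCB10, ABCF2 and ABCG2. Their promoters are shown because theirs were the RNAs that changed. Each sequence is a window of 300 bases around the start annotated by RefSeq (GRCh38.p14), written 5′ to 3′ on the gene's own strand, which is the minus strand for all 3. Capitals mark matches on either strand to 4 short motifs: GGGCGG (the GC box bound by SP factors), CCAAT (bound by NF-Y), CACGTG (the E-box bound by MYC and USF) and TGACNNNGC (the core bound by NFE2L2). The windows lie at chr1:229558658-229558957 for ABCB10, at chr7:151227156-151227455 for ABCF2 and at chr4:88158860-88159159 for ABCG2, for which RefSeq lists 5 starts and the middle one was taken.
ABCB10: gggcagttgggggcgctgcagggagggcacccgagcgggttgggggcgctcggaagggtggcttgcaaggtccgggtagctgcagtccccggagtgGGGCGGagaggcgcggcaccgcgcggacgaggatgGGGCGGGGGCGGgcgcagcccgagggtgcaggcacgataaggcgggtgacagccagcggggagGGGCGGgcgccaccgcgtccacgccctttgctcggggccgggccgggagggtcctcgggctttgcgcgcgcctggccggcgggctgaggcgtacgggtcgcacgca
ABCF2: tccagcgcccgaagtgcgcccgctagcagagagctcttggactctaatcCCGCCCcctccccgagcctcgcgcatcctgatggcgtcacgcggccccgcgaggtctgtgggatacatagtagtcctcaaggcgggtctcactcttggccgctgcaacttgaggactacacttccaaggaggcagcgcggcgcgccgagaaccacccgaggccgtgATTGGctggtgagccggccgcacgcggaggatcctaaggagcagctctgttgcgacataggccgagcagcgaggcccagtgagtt
ABCG2: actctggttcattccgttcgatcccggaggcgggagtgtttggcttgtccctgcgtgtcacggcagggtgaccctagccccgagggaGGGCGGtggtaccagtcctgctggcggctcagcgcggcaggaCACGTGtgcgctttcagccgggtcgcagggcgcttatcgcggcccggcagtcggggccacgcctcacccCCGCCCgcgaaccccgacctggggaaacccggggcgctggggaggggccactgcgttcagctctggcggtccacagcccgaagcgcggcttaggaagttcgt

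The ABCB10 window held 4 GC boxes, of which 2 followed each other directly, and had a GC content of 77.3%. The ABCG2 window held 2 GC boxes and 1 E-box at a GC content of 70%. The ABCF2 window held 1 GC box and 1 CCAAT box at a GC content of 65.3%. None of the 3 windows held TGACNNNGC, which says only that these letters were not found there. Promoter windows were available for 30 of the 38 members. GGGCGG occurred in 63.3% of them (44.2% of all 27305 windows), CACGTG in 20% (7.27%), TGACNNNGC in 30% (13.5%) and CCAAT in 30% (35.5%). The median GC content was 65.5% in member windows and 58.3% in all windows. A match describes the sequence and does not show that a factor binds there.

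After AVJ16 treatment, 3 of the 32 tested members were lower and none was higher. ABCB10 fell to 60.3% of its DMSO level, ABCG2 to 51.5% and ABCF2 to 72.9%. The other 29 tested members did not pass the test, which was edgeR's quasi-likelihood test over all 16330 genes that passed a filter on low counts, with an adjusted p threshold of 0.05. The share of members that passed as lower, 9.38%, was near that of all genes tested, of which 8.77% were lower and 5.87% higher. No member was higher at an unadjusted p under 0.05 in edgeR, nor at an adjusted p under 0.05 with DESeq2 or voom. In bulk RNA, a smaller share of cells that express a gene cannot be told apart from less RNA per cell. Of the calls, ABCB10 was lost without library A, C or F, ABCG2 without A, B, C, E or F, and ABCF2 without A, B, C or F. Over all genes, too, fewer passed without each of A, B, C, E and F. Without D, 9 members were lower (28.1%), beside 19.6% of all genes.

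**Figure D1:**
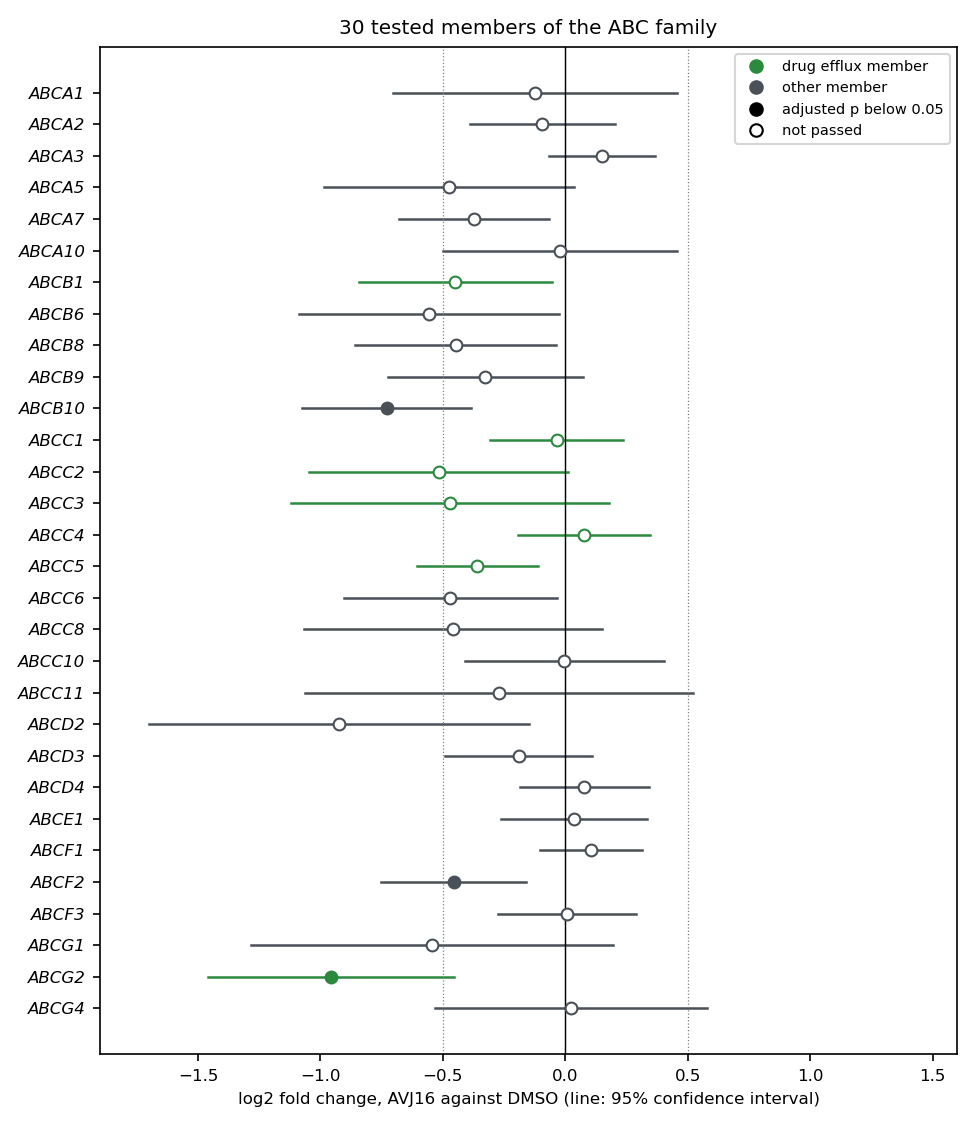
Log2 fold change of AVJ16 against DMSO on the horizontal axis for 30 of the tested members on the vertical axis, with 95% confidence intervals as lines; green marks the drug efflux members and filled points mark an adjusted p below 0.05. Only ABCB10, ABCF2 and ABCG2 are filled, 23 points lie left of 0 and 7 lie right of it, and dotted lines mark the study's fold threshold of 0.5.

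Most members that did not pass lay below their DMSO level. Of the 32 tested members, 24 had a negative log2 fold change and 8 a positive one, beside 50.7% negative over all genes tested. The median log2 fold change of the members was -0.30, beside -0.01 for all genes. At an unadjusted p under 0.05, 10 members were lower and none was higher (31.2% lower, beside 17.0% of all genes). In 11 members every AVJ16 library lay below every DMSO library (34.4%, beside 20.6% of all genes), and in 2, ABCA3 among them, every AVJ16 library lay above (6.25%, beside 16.5%). Taken library by library, the median log2 difference of the members from their DMSO mean was -0.26 (D), -0.23 (E) and -0.22 (F). This median was thus negative and of similar size in each AVJ16 library, library D included. The medians of A, B and C (0.01, 0.01 and -0.01) were small by construction, because the DMSO mean was taken over these libraries. They are therefore not read as a contrast to the AVJ16 values. Medians over all genes by library are not given here. With libraries scaled by their total counts alone, the median of all genes moved to -0.12, 30 members were negative and 2 positive, and the members' median was -0.40. Under that scaling 13.6% of all genes were lower and 3.20% higher.

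The thresholds of the study, an adjusted p below 0.1 and a log2 fold change beyond 0.5, left ABCB10 and ABCG2 as lower (6.25% of tested members, beside 9.49% of all genes) and no member as higher (5.28% of all genes). These are the thresholds given with the study's counts of genes. Its methods also name a stricter rule, an adjusted p below 0.05 with a fold cut that rises as counts fall. That rule was not applied here.

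The members differed widely in abundance. Levels of different genes were compared per kilobase of exon, with all annotated exons of a gene counted, so a gene with many rarely used exons is placed too low. In DMSO the highest levels were those of the translation factors ABCF1 (37.4 CPM per kb) and ABCE1 (22.3 CPM per kb), followed by ABCA3 (14.7 CPM per kb), which loads surfactant lipid into lamellar bodies in lung. Among drug efflux members ABCC4 and ABCC1 led, at 9.05 and 8.72 CPM per kb, and ABCC5 reached 3.89 CPM per kb. ABCB1, ABCC2, ABCC3 and ABCG2 lay far lower, at 0.551, 0.433, 0.307 and 0.305 CPM per kb. In total 18 members reached 1 CPM per kb and 20 did not.

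**Figure D2:**
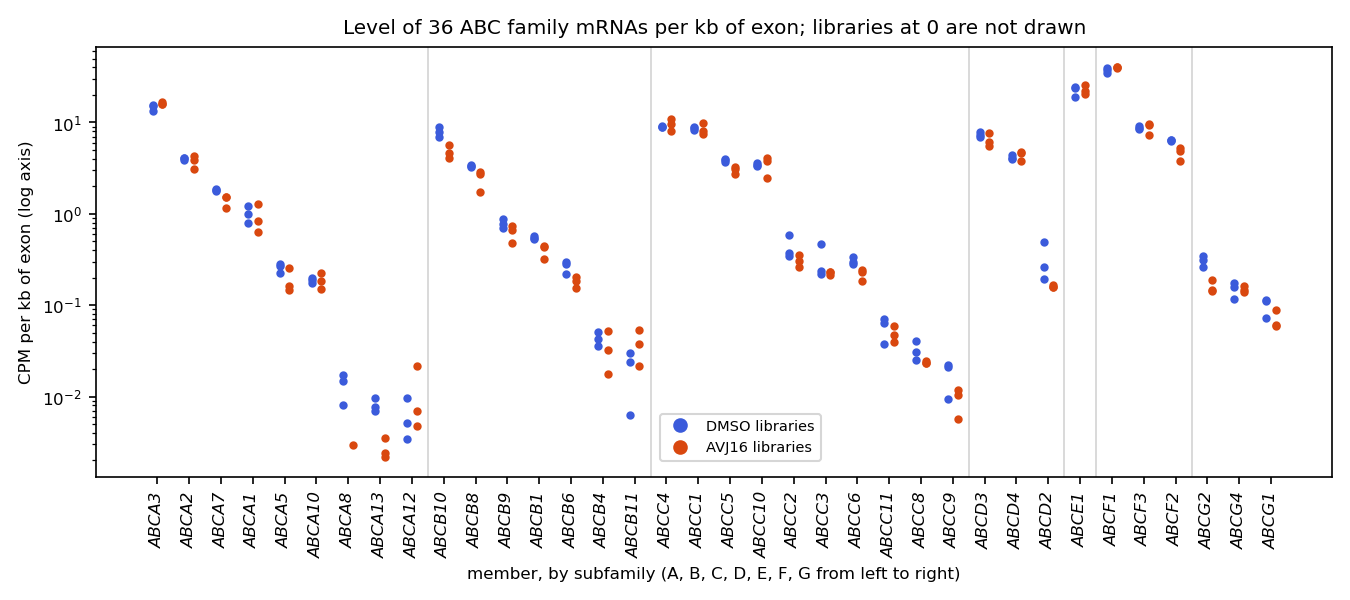
Level of 36 members in each library as CPM per kb of exon (log axis), ordered by subfamily and, within it, by level; blue points are DMSO libraries, orange points AVJ16 libraries, and libraries at 0 are not drawn. ABCF1 and ABCE1 are highest, at 37.4 and 22.3 CPM per kb in DMSO, and the 6 members that were not tested lie at the bottom of subfamilies A, B and C.

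Members of low level had the more negative fold changes. Of the 13 tested members under 10 CPM in DMSO, 12 were negative with a median log2 fold change of -0.47, and all 6449 genes tested in that range had a median of -0.04. The 19 members at or above 10 CPM had 12 negative values and a median of -0.09, beside 0.01 for the 9881 genes in that range. The difference between these groups of members was not tested.

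The drug efflux members were ABCB1, ABCC1 to ABCC5 and ABCG2, all of which were tested. Of these 7, ABCG2 was lower and 6 did not pass, and 6 of the 7 had a negative log2 fold change with a median of -0.45. Over all genes tested, 8.77% were lower and 50.7% were negative. Of the other 25 tested members 2 were lower, 18 had a negative value, and the median was -0.19. The difference between drug efflux members and the rest was not tested. ABCB1, ABCC2, ABCC3 and ABCG2 lay under 10 CPM in DMSO, where the 13 tested members, these included, had a median of -0.47. The part of level in the difference was not tested either. The drug efflux members summed to 207.2 to 213.3 CPM in DMSO and 182.9 to 215.2 CPM in AVJ16, so the groups overlapped.

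ABCG2 (ENSG00000118777, chr4:88090150-88231628), the breast cancer resistance protein, is a paired-chain transporter of the plasma membrane that exports a broad range of drugs and urate. It had 38, 58 and 30 counts in DMSO libraries A, B and C, and 23, 20 and 24 counts in AVJ16 libraries D, E and F. In CPM these were 1.74, 1.93 and 1.46 in DMSO against 1.05, 0.830 and 0.804 in AVJ16. Every AVJ16 library lay below every DMSO library. The log2 fold change was -0.96 (SE 0.22, 95% confidence interval -1.46 to -0.46, adjusted p = 0.0221). It ranged from -1.08 to -0.85 as each library was left out in turn, with adjusted p from 0.00365 (without D) to 0.10 (without F). These values rest on counts of 20 to 58 per library.

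ABCC5 (ENSG00000114770, chr3:183919934-184017939), which exports cyclic nucleotides and nucleotide analogues, had 45.8, 42.3 and 44.7 CPM in DMSO and 31.2, 34.7 and 37.5 CPM in AVJ16. The groups did not overlap. Its log2 fold change was -0.36 (SE 0.11, adjusted p = 0.0581), which missed the threshold of 0.05. It passed without D (adjusted p = 0.0155).

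ABCB1 (ENSG00000085563, chr7:87503017-87713323), or P-glycoprotein, the best known multidrug pump, had 3.39, 3.52 and 3.71 CPM in DMSO and 2.88, 2.08 and 2.81 CPM in AVJ16. The groups did not overlap, and library E was the lowest. The log2 fold change was -0.45 (SE 0.18, confidence interval -0.84 to -0.05), and it did not pass (adjusted p = 0.119). Without D it passed, at -0.52 (adjusted p = 0.0327).

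ABCC1 and ABCC4 were the most abundant drug efflux members per kilobase and lay close to their DMSO levels. ABCC1, or MRP1, which exports glutathione conjugates and leukotriene, had 76.8, 78.8 and 72.8 CPM in DMSO and 65.8, 70.6 and 86.4 CPM in AVJ16. The groups overlapped, and the log2 fold change was -0.04 with a confidence interval of -0.31 to 0.24 (adjusted p = 0.871). ABCC4, or MRP4, which exports cyclic nucleotides and prostaglandins, had 76.9, 77.7 and 79.8 CPM in DMSO and 94.2, 70.0 and 82.9 CPM in AVJ16. D was above and E below all DMSO libraries, and the log2 fold change was 0.08 with a confidence interval of -0.19 to 0.35 (adjusted p = 0.711). With library size scaling the value of ABCC4 was -0.04.

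In ABCC2 and ABCC3 library B stood high. ABCC2, or MRP2, which exports conjugates into bile, had 2.89, 4.55 and 2.73 CPM in DMSO and 2.05, 2.37 and 2.75 CPM in AVJ16. ABCC3, or MRP3, its counterpart on the blood side, had 2.29, 4.45 and 2.1 CPM in DMSO and 2.24, 2.24 and 2.08 CPM in AVJ16. In both, B was the highest of all 6 libraries and the groups otherwise lay close together. The log2 fold changes were -0.52 for ABCC2 (adjusted p = 0.172) and -0.47 for ABCC3 (adjusted p = 0.305), and without B they were -0.22 and -0.01.

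**Figure D3:**
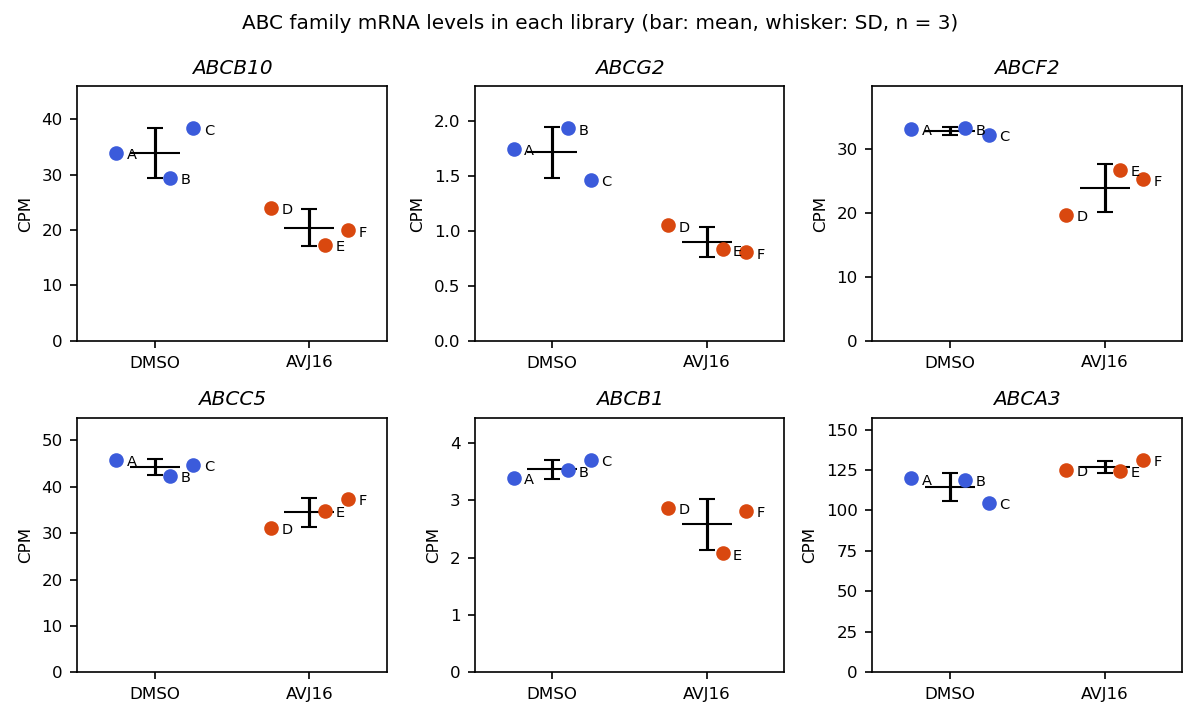
CPM of 6 members in each library, with DMSO libraries in blue and AVJ16 libraries in orange; horizontal bars are means and whiskers the SD of 3 libraries, and each axis starts at 0. ABCB10, ABCG2, ABCF2, ABCC5 and ABCB1 show no overlap between groups with AVJ16 lower, and ABCA3 shows none with AVJ16 higher.

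Of the mitochondrial transporters, ABCB6, ABCB8 and ABCB10 are described here, and they do not stand for all of that group. These 3 have been tied to heme and iron metabolism. Of these, ABCB10 was lower and the other 2 did not pass, and all 3 had a negative log2 fold change.

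ABCB10 (ENSG00000135776, chr1:229516582-229558707) sits in the inner mitochondrial membrane and is needed for heme synthesis in red cell precursors. It had 34, 29.4 and 38.3 CPM in DMSO and 24.1, 17.3 and 20.0 CPM in AVJ16, on 417 to 886 counts per library. The highest AVJ16 library, D, lay below the lowest DMSO library, B. The log2 fold change was -0.73 (SE 0.15, confidence interval -1.07 to -0.38, adjusted p = 0.0150). It ranged from -0.86 (without D) to -0.62 as each library was left out, with adjusted p from 7.19e-05 (without D) to 0.0797 (without F).

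ABCB8, of the inner membrane, had 31.2, 32.2 and 30.6 CPM in DMSO and 16.1, 25.7 and 27.0 CPM in AVJ16. Library D was far below E and F. The log2 fold change was -0.45 (adjusted p = 0.130), and without D it was smaller, at -0.25, and passed (adjusted p = 0.0338). ABCB6, on 23 to 34 counts per library, was at -0.56 on the log2 scale (adjusted p = 0.144), and 54.6% of its exon length was shared on the same strand with another annotated gene, which the counting could have split.

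The soluble members ABCE1, ABCF1, ABCF2 and ABCF3 have ATP-binding domains only. ABCF2 was lower and the other 3 did not pass, with a median log2 fold change of 0.02 over the 4. ABCF2 (ENSG00000033050, chr7:151211484-151227205), whose relatives in yeast work with ribosomes, had 33.2, 33.3 and 32.2 CPM in DMSO and 19.8, 26.8 and 25.3 CPM in AVJ16. The groups did not overlap, and D was the lowest. The log2 fold change was -0.46 (SE 0.13, confidence interval -0.75 to -0.16, adjusted p = 0.0485), close to the threshold. Without D it was -0.34 (adjusted p = 0.00720), without A -0.45 (adjusted p = 0.170), and with DESeq2's size factors the adjusted p was 0.0509. Of the ABCF2 exon length, 37.1% was shared on the same strand with the annotated read-through gene ABCF2-H2BK1, so its counts are uncertain.

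The other soluble members were the most abundant of the family and did not pass. ABCF1, which takes part in translation initiation, had 171, 178 and 156 CPM in DMSO and 177, 184 and 182 CPM in AVJ16 (log2 fold change 0.11, confidence interval -0.10 to 0.31, adjusted p = 0.479). ABCE1, which splits ribosomes after termination, had 148, 118 and 152 CPM in DMSO and 163, 130 and 137 CPM in AVJ16 (log2 fold change 0.04, confidence interval -0.26 to 0.34, adjusted p = 0.880). In both the groups overlapped. ABCF3 was at 0.01 on the log2 scale (confidence interval -0.28 to 0.29). With library size scaling the values of these 3 were -0.00, -0.08 and -0.10.

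Of the 15 listed sterol and phospholipid exporters 11 were in the table, 8 were tested and none passed (median log2 fold change -0.11). At an unadjusted p under 0.05, 1 was lower and none was higher by the same edgeR test. At an adjusted p under 0.05, voom gave 2 lower (beside 22.8% of all genes) and DESeq2 none. The member lower at an unadjusted p in edgeR was ABCA7, which moves phospholipid and has been linked to amyloid handling. It had 16.9, 17.9 and 17.4 CPM in DMSO and 11, 14.6 and 14.6 CPM in AVJ16. The groups did not overlap, with D the lowest, and the log2 fold change was -0.37 (SE 0.14, adjusted p = 0.0995). Without D it was -0.25 (adjusted p = 0.0486). ABCA3, the most abundant subfamily A member, had 120, 119 and 105 CPM in DMSO and 125, 125 and 131 CPM in AVJ16. All AVJ16 libraries were above DMSO, but the log2 fold change of 0.15 did not pass (confidence interval -0.07 to 0.37, adjusted p = 0.329). ABCA1 and ABCG1, which export cholesterol to lipoproteins, were at -0.12 and -0.54 on the log2 scale, with confidence intervals of -0.70 to 0.46 and -1.28 to 0.19. ABCA5, a lysosomal lipid transporter, was at -0.47 on the log2 scale (adjusted p = 0.192), with D among the DMSO values and E and F below them, and it passed without D at -0.73 (adjusted p = 0.00627). ABCA2, ABCA10 and ABCG4 had log2 fold changes of -0.09, -0.02 and 0.02.

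Subfamily D imports fatty acids into peroxisomes (as ABCD2 and ABCD3 do) or handles cobalamin in lysosomes (as ABCD4 does), and none of its 4 tested members passed. At an unadjusted p under 0.05, ABCD2 was lower and no member was higher by edgeR. At an adjusted p under 0.05, voom gave 2 lower (beside 22.8% of all genes) and DESeq2 none. ABCD3, the most abundant, had 55.2, 52.8 and 60.4 CPM in DMSO and 58.0, 42.3 and 47.2 CPM in AVJ16. Library D lay among the DMSO values and E and F below them. The log2 fold change was -0.19 (adjusted p = 0.371), and without D it was -0.32 and passed (adjusted p = 0.0120). ABCD2 had 1.65, 1.23 and 3.07 CPM in DMSO and 1.00, 0.996 and 1.04 CPM in AVJ16, so that C alone was high. Its log2 fold change was -0.92 (SE 0.34, adjusted p = 0.105), and -0.49 without C. ABCD4 had a log2 fold change of 0.08. The sums over subfamily D did not overlap, at 113.3 to 123.0 CPM in DMSO and 106.1 to 112.9 CPM in AVJ16.

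The remaining members were of low level or close to DMSO. ABCC6, an organic anion transporter linked to soft tissue calcification, was at -0.47 on the log2 scale, on 28 to 59 counts per library (adjusted p = 0.135). It has near-identical pseudogene copies, ABCC6P1 and ABCC6P2, so its counts are uncertain. ABCC8, the sulfonylurea receptor of potassium channels, was at -0.46 on 14 to 33 counts (adjusted p = 0.287). ABCB9, a lysosomal peptide transporter, was at -0.33 (adjusted p = 0.245), and 24.6% of its exon length overlapped genes on the opposite strand. ABCC10, a multidrug resistance protein, was at -0.00 and ABCC11, an anion exporter of sweat glands, at -0.27 (confidence intervals -0.41 to 0.40 and -1.06 to 0.52). The 6 members that were not tested, ABCA8, ABCA12, ABCA13, ABCB4, ABCB11 and ABCC9, had 12 to 45 counts in total over all libraries and at most 12 in any 1 library. ABCA8 had 2, 5 and 4 counts in DMSO and 0, 0 and 1 in AVJ16, too few for a comparison. The family symbols ABCA4, ABCA6, ABCA9, ABCB5, ABCC12, ABCG5 and ABCG8 were not analysed here.

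By subfamily, the median log2 fold change was -0.11 in A (6 tested), -0.45 in B (6 tested, 1 lower), -0.36 in C (9 tested), -0.18 in D (4 tested), 0.04 in E (1 tested), 0.01 in F (3 tested, 1 lower) and -0.54 in G (3 tested, 1 lower). No member of any subfamily was higher. The 28 tested members of the subfamilies with a membrane part had 23 negative values and a median of -0.34, with 2 lower. Subfamily B summed to 139 ± 4.4 CPM in DMSO and 119 ± 6.7 CPM in AVJ16 (SD, n = 3), and that of subfamily G fell short of every DMSO library too, at 2.18 to 2.33 against 2.88 to 3.53 CPM. The sums over all members overlapped, at 1069 to 1090 CPM in DMSO and 1029 to 1088 CPM in AVJ16. No test was made on these sums.

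The calls among members, like those over all genes, depended on which libraries were used. Without library D, the members that passed were ABCA5, ABCA7, ABCB1, ABCB8, ABCB10, ABCC5, ABCD3, ABCF2 and ABCG2, all lower. No member passed without A, C or F, 1 passed without B (ABCB10) and 2 without E (ABCB10 and ABCF2). Calls over all genes fell as well. The lower genes numbered 593 of 16763 without A, 661 of 16592 without B and 622 of 16692 without C. They numbered 982 of 16601 without E and 527 of 16645 without F, against 1432 of 16330 with all 6 libraries. In 16 of the 32 tested members library D was the lowest of the AVJ16 libraries and in 11 it was the highest, so its departure was not in 1 direction. With D kept but weighted by voom, 12 members were lower, beside 22.8% of all genes lower and 20.7% higher.

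**Figure D4:**
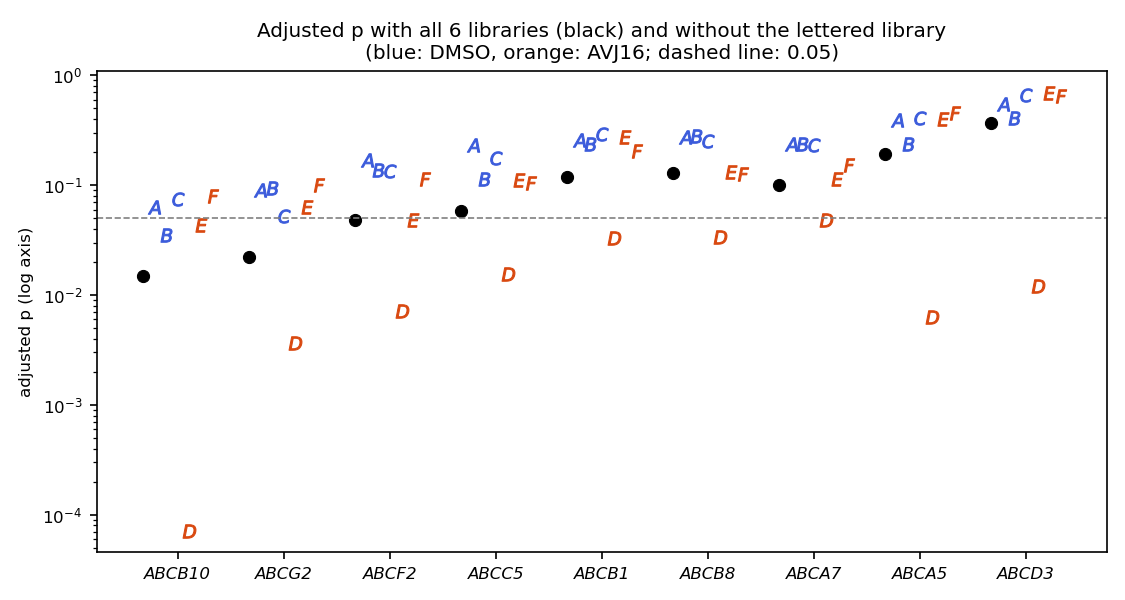
Adjusted p (log axis) of the 9 members that passed without library D, with all 6 libraries (black points) and without the library whose letter is drawn (blue letters DMSO, orange letters AVJ16); the dashed line is 0.05. Each D lies below the line because the members were chosen for passing without D, so its contrast with the other letters is no separate result. The lowest value is 7.19e-05 for ABCB10.

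Genes that work with the family were set beside it. Over all genes tested, 8.77% were lower and 5.87% higher by the same test. The counts in the short lists below are not read as a result about those lists. Of the family's members that carry other symbols, TAP1 and TAP2, which load peptides for antigen presentation, did not pass, with log2 fold changes of 0.21 and 0.33 (adjusted p = 0.539 and 0.0729). Of 4 tested genes of xenobiotic and stress sensing (AHR, HIF1A, KEAP1 and NFE2L2), 1 was higher and 3 did not pass. NFE2L2, the oxidative stress factor that drives several ABCC genes, had 128, 131 and 126 CPM in DMSO and 183, 168 and 177 CPM in AVJ16 (log2 fold change 0.46, SE 0.09, adjusted p = 0.0113). The groups did not overlap. Whether the NFE2L2 level bears on the ABCC members was not tested. Of 12 tested genes of glutathione conjugation, which supplies substrates of the ABCC pumps, 1 was lower (GSTM2, log2 fold change -0.82, adjusted p = 0.0315) and 11 did not pass. GSTM2 did not pass in DESeq2 (adjusted p = 0.0695 with the study's settings and 0.0540 with default ones).

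Of 6 efflux genes outside the family 2 were lower (beside 8.77% of all genes) and 4 did not pass. They were the copper pumps ATP7B (log2 fold change -0.51, adjusted p = 0.0214) and ATP7A (log2 fold change -0.69, adjusted p = 0.0221). In ATP7B the DMSO libraries had 19.4, 19.3 and 17.9 CPM and the AVJ16 libraries 13.0, 12.2 and 14.6 CPM. Of 12 genes around LXR, the sterol sensor that controls ABCA1 and ABCG1, 1 was higher (the fatty acid desaturase SCD, log2 fold change 0.64, adjusted p = 0.00619), 1 was lower (the LXR partner RXRA, log2 fold change -0.50, adjusted p = 0.0237) and 10 did not pass. Without D, all 6 of these related genes passed, at 0.42 for NFE2L2, -0.88 for GSTM2, -0.82 for ATP7A, -0.50 for ATP7B, 0.68 for SCD and -0.40 for RXRA on the log2 scale. These genes had been picked for passing with all 6 libraries, and without D 19.6% of all genes were lower and 17.6% higher. Their passing without D is therefore no separate result. SCD also passed without any other single library. NFE2L2 did not pass without A, C or F (adjusted p of up to 0.0780), GSTM2 and RXRA failed when any of A, B, C and F was left out (highest 0.127 and 0.103), and ATP7A and ATP7B failed when any library but D was left out (highest 0.103 and 0.115).

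No gene passed among the 10 partners of the peroxisomal ABCD members, the 6 partners of ABCE1 in ribosome recycling or the 11 tested genes of mitochondrial iron-sulfur and heme metabolism around ABCB10. At an unadjusted p under 0.05, edgeR gave 2 lower and 1 higher, none lower and 2 higher, and 2 lower and 3 higher in these lists. At an adjusted p under 0.05, voom gave 2 lower and 2 higher, none lower and 2 higher, and 3 lower and 4 higher, and DESeq2 at its default settings gave 1 higher, among the ABCE1 partners. Over all genes edgeR at that unadjusted p gave 17.0% lower and 13.8% higher. Voom gave 22.8% lower and 20.7% higher, so the counts in these short lists are not read as a result about them. The smallest p-values were those of PEX19 (log2 fold change -0.27, adjusted p = 0.122), EIF3J (log2 fold change 0.31, adjusted p = 0.0648) and NFS1 (log2 fold change 0.26, adjusted p = 0.0988). FECH, the last enzyme of heme synthesis, had 47.1, 44.2 and 44 CPM in DMSO and 37.5, 36.7 and 38.4 CPM in AVJ16 (log2 fold change -0.27, adjusted p = 0.10). In FECH the groups did not overlap. Of the 11 tested genes of its list, 3 lay below every DMSO library and 3 above, beside 20.6% and 16.5% of all genes tested.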

How the data were processed

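The authors deposited raw gene counts for the 6 libraries. Per the labels, the authors prepared stranded poly(A) libraries, trimmed reads with cutadapt 2.10, aligned them to GRCh38 with TopHat2 2.1.1, counted with HTSeq 2.01 and normalised with DESeq2 1.36.0. The sources used here do not state whether counting used strand. The 6 normalised columns were not used. Columns are lettered A to F and were assigned to groups, not to replicate numbers, by the bar above the authors' heat map. The smallest count sum over all libraries was 10, so the table had been filtered.

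Counts were tested over all genes with edgeR 4.0.16 (limma 3.58.1, R 4.3.3): filterByExpr (minimum count 10, minimum total 15), TMM scaling, two-sided robust quasi-likelihood F test, Benjamini-Hochberg adjustment, prior count 0.125. CPM were TMM-scaled. The SE was the log2 fold change divided by the square root of F. Exon lengths came from GENCODE 44 and promoters from RefSeq. The fit was checked on simulated counts. Alternatives were other scalings, no filter, DESeq2 1.42.0, voom, the legacy quasi-likelihood fit and leaving out each library. Named genes were members that passed 0.05 or 0.1, drug efflux members, the most abundant of each subfamily, and up to 3 genes per related list. Other members named with values were chosen after their values were seen. Members and lists were chosen with earlier results of these data known. Values of some single members are not reported here.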

Additional observations from a re-analysis of the deposited data

How the results depend on the processing

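The count of lower members was 3 in the main analysis, 2 to 4 with other scalings, no filter, DESeq2 or the legacy fit (chosen after seeing the data), and 12 with voom sample weights. It ran from 0 to 9 as each library was left out, with 9 only without D. By the study's thresholds 2 members were lower, 8 with library size alone, 5 with voom and 1 to 6 as each library was left out. The share of all genes at those thresholds was computed only for the main analysis (9.49% lower). The other counts are therefore not read as a result about the members. At an adjusted p below 0.05, library size alone gave 13.6% of all genes as lower and voom 22.8%. At an adjusted p below 0.05, drug efflux members lower were 1 in the main analysis and 2 with library size alone or upper quartile scaling. They were 0 with DESeq2 at the study's settings, 3 with voom and 0 to 3 as each library was left out. The family median of -0.30 was -0.40 with library size alone, -0.27 with DESeq2 at either setting, -0.23 with voom and -0.36 to -0.23 as each library was left out. No member was higher under any of the 14 alternatives. Of 448 values of single members, 416 stayed on their side of the threshold, 17 moved past it and 15 fell short of it. ABCB10 passed in 11 of the 14, and ABCG2 and ABCF2 in 8 each. With DESeq2 at the study's settings ABCG2 had an adjusted p of 0.0601. That is under the 0.1 used for the study's counts of genes but over the 0.05 named in its methods. Its log2 fold change was -0.85 or lower in every alternative, so ABCG2 met the study's thresholds in that DESeq2 fit. The cause of these differences between settings was not tested. The sign changed under at least 1 alternative in 12 members, none of them called. No paired analysis was possible because the columns carry no replicate numbers. Counts under about 60 per library limit ABCG2, ABCB6, ABCC6, ABCC8 and ABCG1. Counting noise adds most to those members, and a difference that did not pass may still exist.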
